A study of Mus musculus with 21 samples.

Results

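Cholesterol and fatty acids are made from acetyl-CoA by enzymes whose genes are named here as 1 set of 33, picked by gene symbol from the 41608 gene rows of the count table. The set holds 19 genes of the sterol branch, from Acat2 to Dhcr7, and 8 genes of the fatty acid branch, from the citrate carrier Slc25a1 to the desaturases Scd1 and Scd2. It also holds 6 genes that regulate both branches or carry sterol (Srebf1, Srebf2, Scap, Insig1, Insig2 and Stard4). All 33 passed the filter on low counts. The RNA libraries came from cultured mouse embryonic fibroblasts (MEFs), immortalized connective tissue cells, of 1 line that stably expresses LacZ, a bacterial control protein, and 1 line that stably expresses V5-GCN5. GCN5 (gene Kat2a) is a histone acetyltransferase, and V5 is a short tag. Both lines were transfected for 2 days with 10 nM of control siRNA (siControl, genotype Hsf1 WT) or of siRNA against Hsf1 (siHsf1, genotype Hsf1 KD). Hsf1 encodes a transcription factor known for the heat-shock response. Each of the 4 pairings of line and siRNA had 3 libraries. The labels do not say whether the 3 libraries of a group came from separate cultures, so p-values measure the spread between these libraries. In a second assay, CUT&RUN, c-MYC binding was mapped in MEFs kept for 7 days in ethanol (Hsf1 WT) or in 4-OHT, which deletes Hsf1 (Hsf1 CKO). An antibody there guides a nuclease to cut DNA around the bound protein. The labels do not give the promoters that drive LacZ, V5-GCN5 or the deleting enzyme, nor the species of the GCN5 construct.

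In the sterol branch, acetyl-CoA is built into mevalonate, mevalonate into isoprenoid diphosphates, these into squalene, and squalene into lanosterol and cholesterol. In the fatty acid branch, citrate leaves the mitochondrion, is cleaved to acetyl-CoA, and is built by acetyl-CoA carboxylase and fatty acid synthase into palmitate, which is then elongated and desaturated. Genes of both branches are known targets of the SREBP transcription factors (genes Srebf1 and Srebf2). SREBP precursors are held in the endoplasmic reticulum by SCAP and the INSIG proteins while sterol is plentiful, and are cut and sent to the nucleus when it is scarce; SREBP-1 is best known for the fatty acid genes and SREBP-2 for the sterol genes. In fibroblasts, as in most cells, this system keeps membrane lipid constant.

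The LacZ libraries held 7.22 to 8.16 M (mega) gene counts and the GCN5 libraries 3.69 to 4.27 M, so that depth and line coincide. Expression is given as CPM, counts per megacount of a library after TMM scaling, which assumes that most genes do not change. Hsf1 itself stood at 128, 128 and 134 CPM in LacZ cells with siControl, 137, 121 and 138 CPM in GCN5 cells with siControl, 57.6, 55.4 and 47.8 CPM in LacZ cells with siHsf1 and 67.9, 74.5 and 73.0 CPM in GCN5 cells with siHsf1. It was lower in every siHsf1 library than in every siControl library of the same line, by -1.28 (SE 0.08) on the log2 scale in LacZ and by -0.88 (SE 0.08) in GCN5 cells. The reduction differed between the lines by 0.41 (SE 0.11, edgeR quasi-likelihood adjusted p = 0.011). Kat2a stood at 215, 215 and 220 CPM in LacZ cells with siControl, 262, 233 and 245 CPM in GCN5 cells with siControl, 125, 117 and 130 CPM in LacZ cells with siHsf1 and 247, 252 and 244 CPM in GCN5 cells with siHsf1. Its line difference did not pass with siControl (0.19, SE 0.06, edgeR quasi-likelihood adjusted p = 0.051) and was 1.00 (SE 0.06) with siHsf1. Whether reads of the construct were counted under Kat2a is not given in the sources used here, and the groups are called by their labels. The 12 fibroblast markers, among them Col1a1, Col1a2, Fn1 and Vim, had a summed level of 6460 to 7290 CPM in siControl LacZ, 9150 to 10700 CPM in siHsf1 LacZ, 8260 to 8450 CPM in siControl GCN5 and 8580 to 8770 CPM in siHsf1 GCN5 libraries. Thy1, a fibroblast surface marker, was at 0 to 0.122 CPM. The 10 adipocyte markers summed to 33.4 to 51.8 CPM over the 12 libraries, mostly from Pparg, with Retn and Lep at 0, Adipoq at 0 to 0.138 CPM and Plin1 at 0 to 0.124 CPM. In the 4 groups, in the order just given, they summed to 37.8 to 41.7, 42.8 to 51.8, 33.4 to 40.6 and 34.1 to 38.7 CPM. Fabp4, another of the 10, stood at 0 to 3.72 CPM and Cebpa at 0.866 to 2.78 CPM. Fabp4 rose with siHsf1 in LacZ cells by 1.62 (SE 0.38, edgeR quasi-likelihood adjusted p = 0.0014). It was at 0 in every siHsf1 GCN5 library, and lower there than in siHsf1 LacZ cells (same test, adjusted p = 1.6e-06). Pparg was lower in the GCN5 line with siHsf1 by -0.31 (SE 0.11, adjusted p = 0.018). The 10 haematopoietic markers summed to 26.6 to 27.3 CPM in siControl LacZ, 51.5 to 59.4 CPM in siHsf1 LacZ, 22.9 to 26.8 CPM in siControl GCN5 and 25.4 to 30.7 CPM in siHsf1 GCN5 libraries, mostly from Cd14 and Cd68, with Ptprc at 0 to 0.271 CPM. The 8 epithelial markers summed to 46.7 to 62.5 CPM in siControl LacZ and 44.1 to 55.3 CPM in siHsf1 LacZ libraries. In siControl GCN5 they summed to 31.7 to 41.0 CPM and in siHsf1 GCN5 to 33.0 to 37.0 CPM. Most of this came from Krt18, and Epcam was at 0 in every library. Krt18 was lower in the GCN5 line by -0.61 (SE 0.12, edgeR quasi-likelihood adjusted p = 0.0013) with siControl and by -0.46 (SE 0.12, adjusted p = 0.0033) with siHsf1. The part of these shifts in the results below was not tested, and in bulk RNA fewer cells of a type and less RNA per cell cannot be told apart.

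Promoter windows from RefSeq (GRCm38.p6), running from 250 bases before to 50 bases after a start, were found for 27 of the 33 genes, and 26 of them lay within 200 bases of the start used for the counts. The other window, of Acaca, lay 65761 bases away and was left out. The 7 windows below belong to sterol genes (Idi1, Cyp51) and fatty acid genes (Acly, Fasn, Elovl6) on which the results turn, to a gene of the first steps (Hmgcs1) and to the feedback gene Insig1. Capitals mark 3 motifs, found on either strand: the NF-Y box CCAAT, which reads ATTGG where it lies on the other strand, the E-box CACGTG, which c-MYC and SREBP proteins can bind, and the sterol regulatory element TCACNCCAC. Each line gives the sequence 5′ to 3′ on the gene's strand.
Hmgcs1 (chr13:119690101-119690400, plus strand): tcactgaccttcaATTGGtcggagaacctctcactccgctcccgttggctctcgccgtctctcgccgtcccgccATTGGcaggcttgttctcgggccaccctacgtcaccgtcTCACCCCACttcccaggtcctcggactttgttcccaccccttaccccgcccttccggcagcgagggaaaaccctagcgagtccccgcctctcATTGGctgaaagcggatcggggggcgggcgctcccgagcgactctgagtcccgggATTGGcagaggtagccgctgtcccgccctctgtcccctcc
Idi1 (chr13:8885356-8885655, plus strand): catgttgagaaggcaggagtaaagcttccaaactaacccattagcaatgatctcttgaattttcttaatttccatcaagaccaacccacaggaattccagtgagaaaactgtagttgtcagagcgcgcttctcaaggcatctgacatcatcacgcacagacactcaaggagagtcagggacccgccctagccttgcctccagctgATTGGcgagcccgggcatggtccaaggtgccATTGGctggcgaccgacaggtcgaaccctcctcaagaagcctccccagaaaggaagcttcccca
Cyp51 (chr5:4104648-4104947, minus strand): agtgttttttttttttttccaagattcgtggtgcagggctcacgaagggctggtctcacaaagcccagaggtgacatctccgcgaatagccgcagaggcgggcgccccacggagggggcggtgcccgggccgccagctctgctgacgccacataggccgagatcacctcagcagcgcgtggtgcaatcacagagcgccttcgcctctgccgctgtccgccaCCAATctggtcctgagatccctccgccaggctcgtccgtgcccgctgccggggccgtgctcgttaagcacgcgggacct
Insig1 (chr5:28071162-28071461, plus strand): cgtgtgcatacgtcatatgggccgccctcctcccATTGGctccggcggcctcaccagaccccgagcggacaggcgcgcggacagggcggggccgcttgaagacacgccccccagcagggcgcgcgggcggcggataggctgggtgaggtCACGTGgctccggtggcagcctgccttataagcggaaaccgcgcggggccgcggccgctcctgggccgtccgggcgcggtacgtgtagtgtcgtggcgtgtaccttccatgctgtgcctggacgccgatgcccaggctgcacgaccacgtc
Acly (chr11:100527951-100528250, minus strand): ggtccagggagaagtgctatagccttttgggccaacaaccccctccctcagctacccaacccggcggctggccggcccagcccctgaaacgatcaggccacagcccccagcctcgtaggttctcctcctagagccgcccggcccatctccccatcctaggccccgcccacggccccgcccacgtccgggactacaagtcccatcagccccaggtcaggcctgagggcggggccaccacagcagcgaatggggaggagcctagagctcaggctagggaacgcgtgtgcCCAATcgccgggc
Fasn (chr11:120824498-120824797, minus strand): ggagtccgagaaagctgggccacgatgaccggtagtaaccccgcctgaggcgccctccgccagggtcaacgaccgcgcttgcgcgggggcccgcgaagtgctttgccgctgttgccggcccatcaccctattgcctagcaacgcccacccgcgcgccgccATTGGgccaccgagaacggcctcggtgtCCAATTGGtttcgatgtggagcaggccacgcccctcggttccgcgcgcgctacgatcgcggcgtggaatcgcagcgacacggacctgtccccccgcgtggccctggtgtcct
Elovl6 (chr3:129532136-129532435, plus strand): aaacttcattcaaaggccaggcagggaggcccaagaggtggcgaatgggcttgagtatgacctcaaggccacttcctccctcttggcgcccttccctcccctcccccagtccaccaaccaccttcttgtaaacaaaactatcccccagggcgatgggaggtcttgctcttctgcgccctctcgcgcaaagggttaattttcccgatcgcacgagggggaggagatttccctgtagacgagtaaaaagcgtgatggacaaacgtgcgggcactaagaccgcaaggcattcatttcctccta

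Positions are counted in bases from the start, with negative values before it. Hmgcs1 holds 4 NF-Y boxes and the sterol element at -137. Idi1 holds NF-Y boxes at -45 and -14, Cyp51 has 1 at -29, and Insig1 has 1 at -216 with the E-box at -101. In Fasn a pair of NF-Y boxes on opposite strands, at -62 and -59, overlap, and another match lies at -90. Acly has its only box at 38, after the start. Elovl6, the called fatty acid gene with the largest fold change between the lines, has none of the 3 motifs in this window. Across the 26 genes, the NF-Y box was found in 22 (84.6%), against 41.0% of the 7438 windows of genes tested for expression and 38.0% of all 27025 windows. It was in 14 of 16 sterol windows, 4 of 5 fatty acid windows and 4 of 5 regulator windows, and 8 genes had 3 or more boxes. The E-box was in 5 of 26 (19.2%, against 10.9% of tested genes and 7.23% of all windows): Hsd17b7, Sc5d, Slc25a1, Insig1 and Scap. The sterol element was in 1 of 26 (3.85%, against 0.968% and 1.22%). The GC box GGGCGG was in 20 (76.9%, against 68.4% and 36.0%). Of the paired heat-shock unit, GAANNTTC or TTCNNGAA, matches lay in 2 windows (7.69%, against 11.5% and 15.1%), those of Idi1 and Tm7sf2. All motifs were searched on both strands with overlapping matches counted, and a match is a description of letters in this window.

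Levels per gene length were compared with the deposited FPKM values (fragments per kilobase and megafragment). In siControl LacZ libraries the highest gene of the set was Acly, ATP citrate lyase, at 104 ± 9.75 FPKM (SD, n = 3), followed by Scd2 at 76.2 ± 4.35 and Srebf2 at 49.8 ± 6.49 FPKM. Acly and Scd2 did not overlap with each other or with the next gene below. Below Scd2, most neighbours overlapped in their libraries: Srebf2 with Fdps (45.2 ± 4.24 FPKM), and the 9 genes from Fasn (35.4 ± 5.57 FPKM) to Srebf1 (19.3 ± 0.94 FPKM) each with the next. Fdps was the highest sterol gene. The lowest were Idi1 (3.24 ± 0.616 FPKM), Hsd17b7 (2.61 ± 0.528), Tm7sf2 (1.75 ± 0.225) and Slc25a1 (1.28 ± 1.10), which overlapped in turn. In the siControl GCN5 libraries Acly reached 135 ± 7.78 FPKM and Scd2 128 ± 6.80 FPKM.

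**Figure D1:**
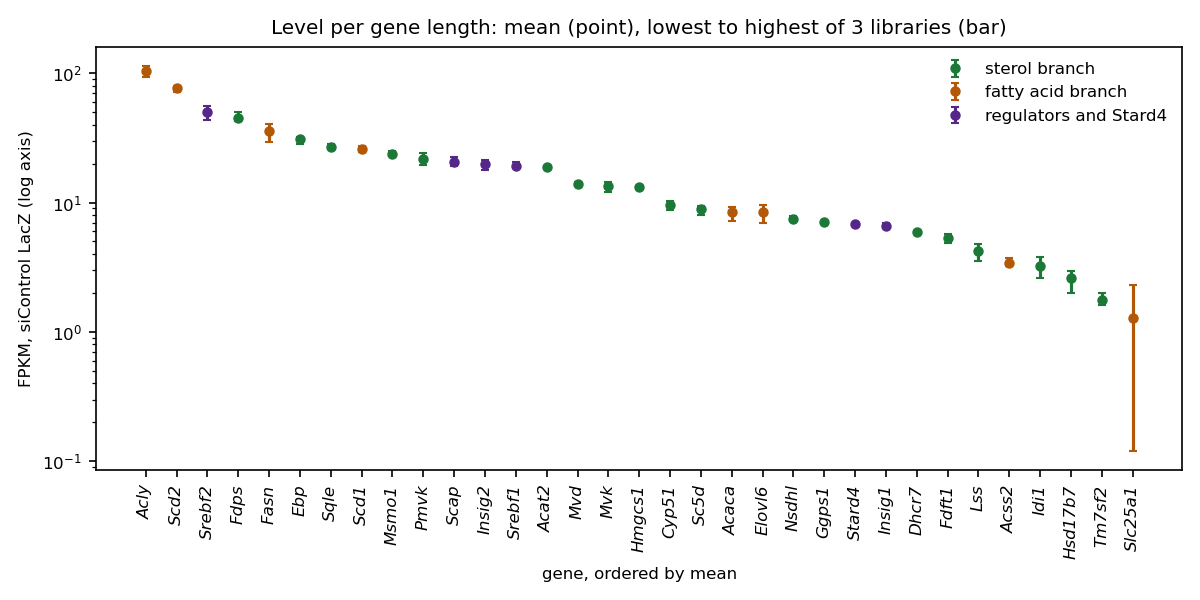
FPKM of the 33 genes in siControl LacZ libraries on a log axis, ordered by mean; points are means, bars run from the lowest to the highest of 3 libraries, and colours mark the branch. Acly stands highest at 104 FPKM and Slc25a1 lowest at 1.28 FPKM, with a bar from 0.121 to 2.30 FPKM.

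The GCN5 line had more transcript of most genes of both branches than the LacZ line, relative to the rest of the transcriptome. With siControl, 21 of the 33 genes were higher and 1, Insig2, was lower, at an adjusted p under 0.05 in edgeR's quasi-likelihood test. Over all 12187 tested genes, 5.46% were called higher and 4.15% lower. The sterol branch had 13 of 19 genes higher and none lower, with a median log2 fold change of 0.58, the fatty acid branch 5 of 8 higher and none lower with a median of 0.36, and the regulators 3 of 6 higher and 1 lower with a median of 0.41; the median of all genes was 0. With siHsf1, 22 genes were higher and 2, Ebp and Insig2, lower, against 22.2% and 22.6% of all tested genes. There the sterol branch had 13 of 19 higher and 1 lower (median 0.58), the fatty acid branch 6 of 8 higher (median 0.89) and the regulators 3 higher and 1 lower (median 0.45). The 2 comparisons use different libraries of the same 2 lines. Of the 21 and 22 genes, 19 were higher in both. The share of all tested genes higher in both is not given here, so this count has no background beside it. With each group's CPM, every GCN5 library lay above every LacZ library for 26 of the 33 genes with siControl (13.7% of all tested genes) and for 25 with siHsf1 (27.4%). Every GCN5 library lay below for 1 gene with siControl (12%) and for 2 with siHsf1 (27.9%).

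Each line is 1 stable line, and its depth cannot be told apart from its construct. With all libraries thinned at random to the lowest total, 3693554 counts, 19 to 21 genes were higher with siControl and 21 to 23 with siHsf1 over 10 draws. Of all 11544 genes tested in the first draw, 529 were higher with siControl and 2490 with siHsf1. Scaled instead by ERCC spike-in RNA, which the series names for its RNA libraries, the all-gene median moved to -0.40 with siControl and -0.07 with siHsf1. On that scale 0 genes were higher and 1, Slc25a1, lower with siControl (0.542% and 0.960% of all genes; 3 of the 33 at an unadjusted p under 0.05), with branch medians of 0.19 for sterol and -0.03 for fatty acid genes. With siHsf1, spike-in scaling called 6 genes higher (Idi1, Sqle, Cyp51, Slc25a1, Elovl6 and Scd2) and 0 lower, against 1.82% and 3.62% of all genes. With the replicate number added to the spike-in fit as a block, an alternative chosen after seeing the data, 0 genes were higher and 2, Slc25a1 and Insig2, lower with siControl (0.927% and 7.96% of all genes). With siHsf1 that fit called 16 higher and 0 lower (6.55% and 8.09%), of which 7 were sterol genes, 6 fatty acid genes and 3 regulators.

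**Figure D2:**
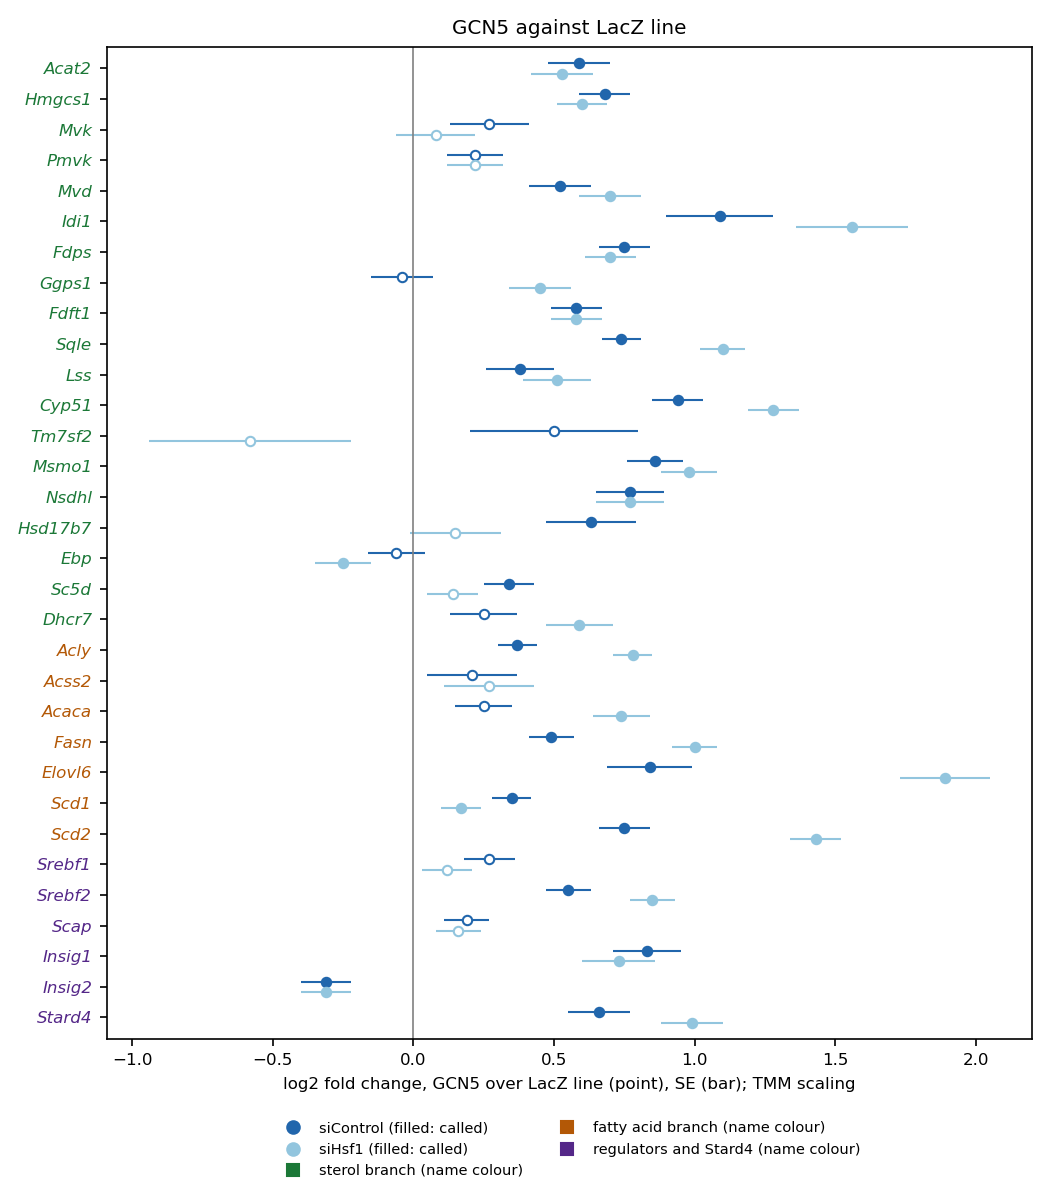
Log2 fold change of the GCN5 over the LacZ line for 32 of the 33 genes, with siControl (dark blue) and siHsf1 (light blue); bars are 1 SE of the fit, filled points passed the adjusted threshold, and name colours mark the branch. Slc25a1, whose SE was 1.28 with siControl and 1.16 with siHsf1, is left out; most sterol and fatty acid points lie right of 0, and Insig2 lies left of it under both siRNAs.

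The steps from acetyl-CoA to mevalonate were higher at their start. Acat2, the cytosolic thiolase that opens the sterol branch, stood at 40.2, 39.0 and 39.3 CPM in LacZ cells with siControl, 62.3, 60.1 and 55.8 CPM in GCN5 cells with siControl, 34.0, 32.5 and 44.2 CPM in LacZ cells with siHsf1 and 58.1, 50 and 52.0 CPM in GCN5 cells with siHsf1. Hmgcs1, which makes HMG-CoA, stood at 47.5, 50 and 49.0 CPM in LacZ cells with siControl, 73.9, 82.3 and 78.2 CPM in GCN5 cells with siControl, 55.9, 44.2 and 51.4 CPM in LacZ cells with siHsf1 and 76.3, 76.6 and 76.3 CPM in GCN5 cells with siHsf1. For both genes all 6 GCN5 libraries lay above all 6 LacZ libraries. The log2 fold change of the line with siControl was 0.59 for Acat2 and 0.68 for Hmgcs1. The kinases that follow, Mvk and Pmvk, passed in neither line comparison (0.27 and 0.22 with siControl, 0.08 and 0.22 with siHsf1), with group means of 21.8 to 28.9 CPM and 33.4 to 44.1 CPM.

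Mvd, the decarboxylase that yields isopentenyl diphosphate, stood at 27.3, 27.1 and 25.1 CPM in LacZ cells with siControl, 35.6, 41.7 and 37.0 CPM in GCN5 cells with siControl, 20.8, 24.1 and 20.0 CPM in LacZ cells with siHsf1 and 34.3, 33.9 and 37.4 CPM in GCN5 cells with siHsf1. Idi1 (gene 319554; GRCm38 chromosome 13, 8885606 to 8892396), the isomerase that gives the second isoprenoid unit, stood at 7.55, 9.59 and 11.1 CPM in LacZ cells with siControl, 21.3, 22.5 and 16.6 CPM in GCN5 cells with siControl, 7.44, 4.35 and 7.56 CPM in LacZ cells with siHsf1 and 16.8, 17.9 and 22.2 CPM in GCN5 cells with siHsf1. Idi1 had the largest fold change of the sterol branch in both line comparisons, 1.09 (SE 0.19, adjusted p = 0.00042) with siControl and 1.56 (SE 0.20, adjusted p = 8.1e-07) with siHsf1, from low counts. Fdps, which joins the units to farnesyl diphosphate, stood at 63.6, 74.1 and 63.2 CPM in LacZ cells with siControl, 100, 125 and 114 CPM in GCN5 cells with siControl, 58.7, 59.5 and 57.8 CPM in LacZ cells with siHsf1 and 96.0, 86.7 and 103 CPM in GCN5 cells with siHsf1. Mvd, Idi1 and Fdps were each higher in every GCN5 library than in every LacZ library. Fdps changed by 0.75 (SE 0.09, adjusted p = 1.3e-06) with siControl, and Mvd by 0.70 (SE 0.11, adjusted p = 1.3e-05) with siHsf1. Ggps1, the enzyme that leads farnesyl diphosphate away to geranylgeranyl diphosphate for protein prenylation, stood at 50.1, 49.6 and 51.6 CPM in LacZ cells with siControl, 46.7, 51.7 and 48.4 CPM in GCN5 cells with siControl, 44.2, 32.8 and 40.6 CPM in LacZ cells with siHsf1 and 57.3, 45.5 and 57.3 CPM in GCN5 cells with siHsf1. It did not pass with siControl (-0.04 (SE 0.11, adjusted p = 0.88)) and was higher with siHsf1 (0.45).

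Fdft1, squalene synthase, the first step given over to sterols alone, stood at 43.5, 50.7 and 48.4 CPM in LacZ cells with siControl, 68.5, 76.6 and 68.5 CPM in GCN5 cells with siControl, 41.5, 44.1 and 39.5 CPM in LacZ cells with siHsf1 and 60.5, 64.9 and 61.3 CPM in GCN5 cells with siHsf1. Its gene overlaps Ctsb on the opposite strand, and the strand setting of the counting is not given in the sources used here. Sqle, squalene epoxidase, a rate-limiting step, stood at 72.8, 79.1 and 73.2 CPM in LacZ cells with siControl, 113, 134 and 130 CPM in GCN5 cells with siControl, 54.8, 53.9 and 57.0 CPM in LacZ cells with siHsf1 and 117, 122 and 116 CPM in GCN5 cells with siHsf1. Lss, which folds the epoxide into lanosterol, stood at 33.4, 24.5 and 30.6 CPM in LacZ cells with siControl, 41.5, 35.7 and 37.6 CPM in GCN5 cells with siControl, 29.3, 25.3 and 26.7 CPM in LacZ cells with siHsf1 and 35.3, 41.7 and 38.6 CPM in GCN5 cells with siHsf1. All 3 passed in both line comparisons and none had a GCN5 library below a LacZ library. Sqle changed by 0.74 (SE 0.07, adjusted p = 1.3e-07) with siControl and 1.10 (SE 0.08, adjusted p = 2.2e-11) with siHsf1. Lss was the smallest of the 3, at 0.38 and 0.51, and its siControl call held in 2 of the 10 thinned draws. That call was also lost with DESeq2 (0.37, adjusted p = 0.10) and in a fit of only the libraries compared (0.37, 0.081). Leaving out any 1 of several libraries, among them each siControl GCN5 library, lost it too (adjusted p = 0.054 to 0.19).

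The enzymes that trim lanosterol differed among themselves. Cyp51 (gene 13121; chromosome 5, 4080674 to 4104697), the lanosterol demethylase, stood at 39.0, 43.7 and 45.1 CPM in LacZ cells with siControl, 85.5, 86.1 and 74.6 CPM in GCN5 cells with siControl, 32.9, 29.9 and 31.5 CPM in LacZ cells with siHsf1 and 76.1, 76.1 and 76.8 CPM in GCN5 cells with siHsf1. Its level in the GCN5 line was 1.92-fold that in the LacZ line with siControl and 2.43-fold with siHsf1 (0.94 (SE 0.09, adjusted p = 3.5e-08) and 1.28 (SE 0.09, adjusted p = 2.6e-11) on the log2 scale). Msmo1, the methylsterol monooxygenase, stood at 43.8, 45.8 and 42.1 CPM in LacZ cells with siControl, 77.4, 80.7 and 80.4 CPM in GCN5 cells with siControl, 41.0, 31.8 and 42.9 CPM in LacZ cells with siHsf1 and 73.7, 67.7 and 85.9 CPM in GCN5 cells with siHsf1. Nsdhl, the dehydrogenase that acts with Msmo1 in removing methyl groups, stood at 16.3, 17.8 and 16.6 CPM in LacZ cells with siControl, 30.7, 25.7 and 30.1 CPM in GCN5 cells with siControl, 13.6, 15.2 and 17.3 CPM in LacZ cells with siHsf1 and 24.0, 27.3 and 27.6 CPM in GCN5 cells with siHsf1. For these 3 genes the GCN5 libraries lay above the LacZ libraries throughout. Msmo1 changed by 0.86 (SE 0.10, adjusted p = 2.8e-06) with siControl and 0.98 (SE 0.10, adjusted p = 4.4e-08) with siHsf1, and Nsdhl by 0.77 (SE 0.12, adjusted p = 0.00012) and 0.77 (SE 0.12, adjusted p = 1.9e-05). Hsd17b7, the keto reductase of the same demethylation, stood at 16.9, 11.4 and 16.2 CPM in LacZ cells with siControl, 24.8, 24.1 and 19.6 CPM in GCN5 cells with siControl, 17.5, 15.5 and 20.8 CPM in LacZ cells with siHsf1 and 20.2, 16.9 and 22.7 CPM in GCN5 cells with siHsf1. It was higher with siControl (0.63) and overlapped with siHsf1 (0.15). The siControl call of Hsd17b7 was lost without siControl LacZ replicate 2 or siControl GCN5 replicate 1 or 2 (adjusted p = 0.054 to 0.081), and held in 8 of 10 thinned draws. Tm7sf2, a sterol reductase, had 5 to 22 counts per library, passed nowhere, and shares sequence on its own strand with Vps51.

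The last steps gave calls in both directions. Ebp, the sterol isomerase, stood at 56.3, 56.9 and 50.2 CPM in LacZ cells with siControl, 58.5, 49.3 and 49.2 CPM in GCN5 cells with siControl, 53.3, 53.8 and 51.4 CPM in LacZ cells with siHsf1 and 42.9, 49.3 and 40.7 CPM in GCN5 cells with siHsf1. It was lower in the GCN5 line with siHsf1 (-0.25, adjusted p = 0.034, called in 5 of 10 thinned draws) and did not pass with siControl (-0.06). The siHsf1 call of Ebp was lost with DESeq2 (adjusted p = 0.082) and with no filter on low counts (0.076). Leaving out any 1 of several libraries, among them each siHsf1 LacZ library, lost it too (0.053 to 0.18). Sc5d, the sterol desaturase, stood at 46.4, 46.4 and 40.3 CPM in LacZ cells with siControl, 56.1, 56.0 and 56.1 CPM in GCN5 cells with siControl, 53.4, 49.4 and 58.1 CPM in LacZ cells with siHsf1 and 62.9, 53.8 and 61.1 CPM in GCN5 cells with siHsf1. Its line difference passed with siControl (0.34) and not with siHsf1 (0.14). The siControl call of Sc5d was lost with DESeq2 (0.33, adjusted p = 0.056). It was also lost without siControl LacZ replicate 3 or any 1 of the siControl GCN5 libraries (0.066 to 0.10), and held in 7 of 10 thinned draws. Dhcr7, a reductase of the final step, stood at 19.1, 18.8 and 18.4 CPM in LacZ cells with siControl, 20.2, 24.4 and 22.4 CPM in GCN5 cells with siControl, 14.0, 13.6 and 12.8 CPM in LacZ cells with siHsf1 and 20.6, 21.2 and 19.2 CPM in GCN5 cells with siHsf1. It passed with siHsf1 (0.59) and not with siControl (0.25), although the groups did not overlap in either case.

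In the fatty acid branch the middle and late steps were higher in the GCN5 line. Acly (gene 104112; chromosome 11, 100476352 to 100528000), which cleaves citrate to cytosolic acetyl-CoA, stood at 474, 421 and 510 CPM in LacZ cells with siControl, 643, 575 and 603 CPM in GCN5 cells with siControl, 362, 326 and 343 CPM in LacZ cells with siHsf1 and 601, 587 and 583 CPM in GCN5 cells with siHsf1. Acaca, acetyl-CoA carboxylase, the committed step, stood at 93.3, 72.2 and 90.5 CPM in LacZ cells with siControl, 119, 94.2 and 90.6 CPM in GCN5 cells with siControl, 64.5, 62.8 and 62.9 CPM in LacZ cells with siHsf1 and 108, 109 and 99.0 CPM in GCN5 cells with siHsf1. Fasn (gene 14104; chromosome 11, 120805958 to 120824547), fatty acid synthase, stood at 367, 296 and 408 CPM in LacZ cells with siControl, 532, 481 and 494 CPM in GCN5 cells with siControl, 268, 251 and 253 CPM in LacZ cells with siHsf1 and 507, 526 and 504 CPM in GCN5 cells with siHsf1. Acly and Fasn had no overlap between the lines under either siRNA, and Acaca overlapped with siControl. The log2 fold changes with siControl were 0.37 (SE 0.07, adjusted p = 0.00031) for Acly and 0.49 (SE 0.08, adjusted p = 0.00054) for Fasn. With siHsf1 they were 0.78 (SE 0.07, adjusted p = 7.6e-10) for Acly and 1.00 (SE 0.08, adjusted p = 1.4e-08) for Fasn. Acaca did not pass with siControl (0.25) and was higher with siHsf1 (0.74).

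Elovl6 (gene 170439; chromosome 3, 129532386 to 129638495), the elongase that lengthens palmitate, stood at 52.3, 42.2 and 58.4 CPM in LacZ cells with siControl, 103, 75.3 and 94.8 CPM in GCN5 cells with siControl, 28.8, 19.6 and 28.3 CPM in LacZ cells with siHsf1 and 95.3, 92.2 and 96.7 CPM in GCN5 cells with siHsf1. Its line difference was the largest of the called genes of either branch with siHsf1, 1.89 (SE 0.16, adjusted p = 3e-07), or 3.72-fold, and was 0.84 (SE 0.15, adjusted p = 0.0023) with siControl. Scd2, a stearoyl-CoA desaturase widely expressed outside liver, stood at 430, 394 and 442 CPM in LacZ cells with siControl, 751, 680 and 696 CPM in GCN5 cells with siControl, 300, 213 and 258 CPM in LacZ cells with siHsf1 and 715, 688 and 678 CPM in GCN5 cells with siHsf1. It changed by 0.75 (SE 0.09, adjusted p = 5.1e-05) with siControl and 1.43 (SE 0.09, adjusted p = 4.8e-09) with siHsf1. Scd1, its close paralog on chromosome 19, stood at 124, 121 and 134 CPM in LacZ cells with siControl, 165, 157 and 161 CPM in GCN5 cells with siControl, 146, 126 and 127 CPM in LacZ cells with siHsf1 and 149, 153 and 147 CPM in GCN5 cells with siHsf1. The paralogs differed in size of change: Scd1 was higher by 0.35 with siControl and by 0.17 with siHsf1, where it lost its call (adjusted p = 0.052 to 0.17) when any of 6 libraries was left out and with DESeq2 (0.18, adjusted p = 0.069), and kept it in 2 of 10 thinned draws. How shared sequence of Scd1 and Scd2 was counted is not given in the sources used here. Acss2, which makes acetyl-CoA from acetate, did not pass (0.21 and 0.27; group means 10.2 to 12.9 CPM). Slc25a1, the mitochondrial citrate carrier, had counts of 3, 62 and 39 in siControl LacZ, 3, 14 and 1 in siHsf1 LacZ, 2, 3 and 8 in siControl GCN5 and 6, 31 and 53 in siHsf1 GCN5 libraries. Its libraries overlapped in all 4 comparisons, and it was not called in edgeR's quasi-likelihood test with TMM scaling. Its line difference with siHsf1 lay at the threshold (adjusted p = 0.051) and passed with DESeq2 (3.31, adjusted p = 0.016), with the replicate block (3.27, 0.0017) and without any 1 of 4 libraries (0.021 to 0.049), as well as with spike-in scaling. With the block its fall with siHsf1 in LacZ cells also passed (-2.45, adjusted p = 0.01).

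**Figure D3:**
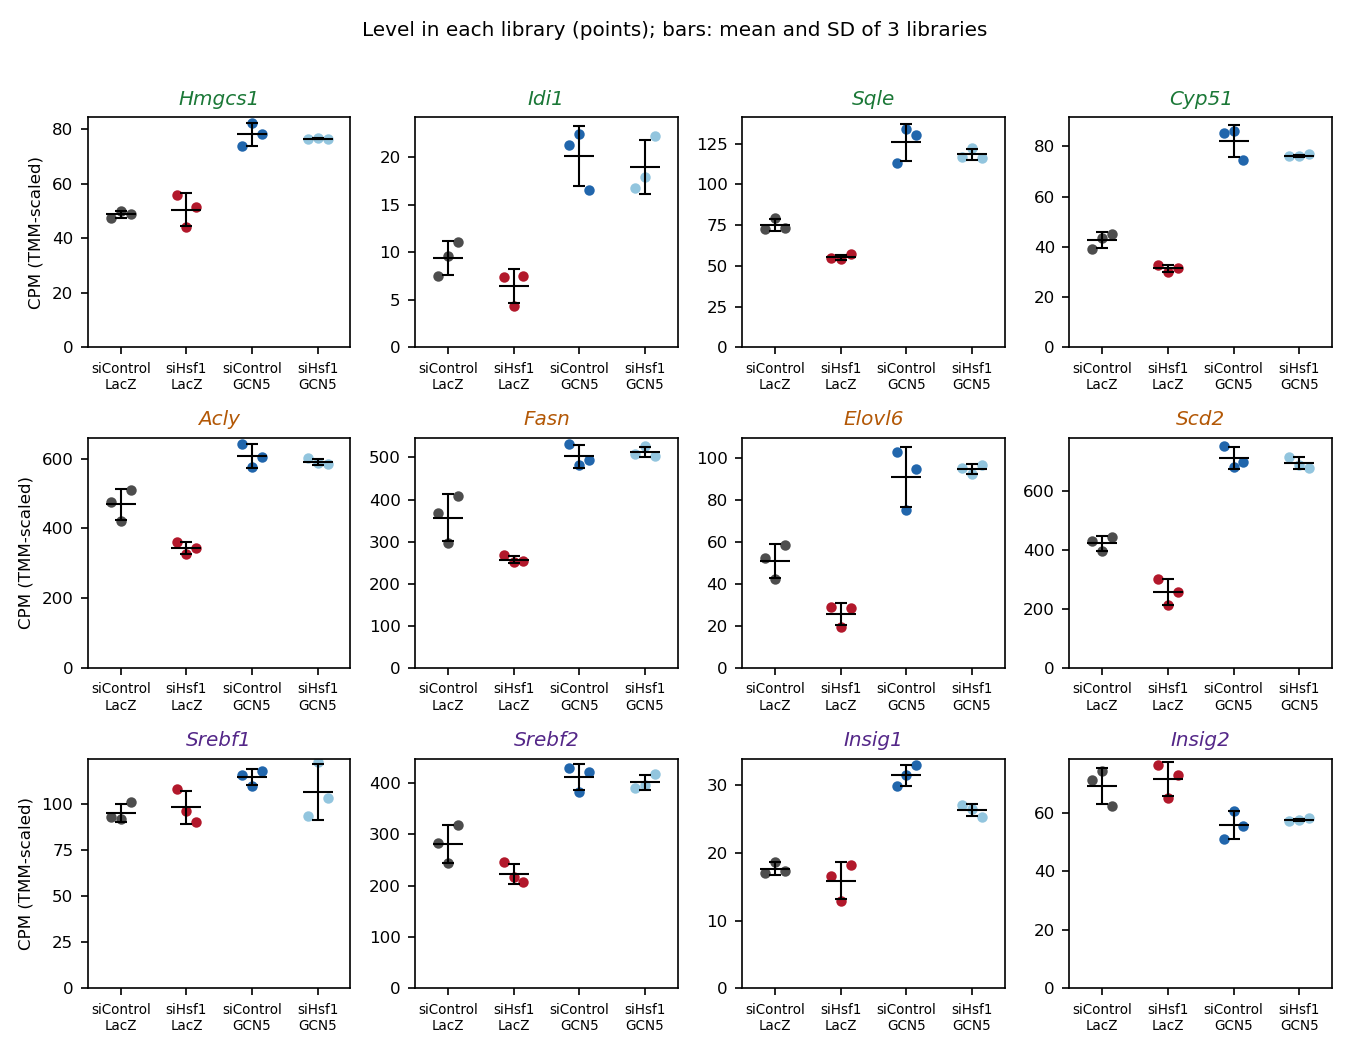
TMM-scaled CPM of 12 genes in each of the 12 libraries; points are libraries, horizontal bars the mean and the SD of 3, and title colours mark the sterol branch (green), the fatty acid branch (orange) and the regulators (purple). For Sqle, Cyp51, Acly, Fasn, Elovl6 and Scd2 the siHsf1 LacZ points lie lowest and the 2 GCN5 groups lie highest and side by side.

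Among the regulators, Srebf2 and Insig1 differed between the lines and Srebf1 and Scap did not pass. Srebf2, the SREBP best known for the sterol genes, stood at 282, 243 and 317 CPM in LacZ cells with siControl, 429, 383 and 421 CPM in GCN5 cells with siControl, 245, 217 and 206 CPM in LacZ cells with siHsf1 and 390, 396 and 417 CPM in GCN5 cells with siHsf1. All GCN5 libraries lay above all LacZ libraries, with log2 fold changes of 0.55 (SE 0.08, adjusted p = 0.00013) and 0.85 (SE 0.08, adjusted p = 7.2e-08) under siControl and siHsf1. Srebf1, the SREBP best known for the fatty acid genes, stood at 92.8, 92.1 and 101 CPM in LacZ cells with siControl, 116, 110 and 118 CPM in GCN5 cells with siControl, 108, 96.4 and 90.3 CPM in LacZ cells with siHsf1 and 93.6, 123 and 103 CPM in GCN5 cells with siHsf1. Its difference was 0.27 (SE 0.09, adjusted p = 0.055) with siControl and 0.12 (SE 0.09, adjusted p = 0.29) with siHsf1. The first passed with no filter on low counts (0.25, adjusted p = 0.029), in a fit of only the libraries compared (0.26, 0.042) and without any 1 of 4 libraries (0.042 to 0.048). Srebf1 overlaps Rai1 on the opposite strand, and the count table does not separate its isoforms. Scap, the escort protein of SREBP, stood at 97.7, 90.1 and 106 CPM in LacZ cells with siControl, 113, 116 and 106 CPM in GCN5 cells with siControl, 105, 110 and 95.2 CPM in LacZ cells with siHsf1 and 113, 113 and 122 CPM in GCN5 cells with siHsf1, with differences of 0.19 and 0.16. The INSIG genes went opposite ways. Insig1, itself a known SREBP target, stood at 17, 18.7 and 17.3 CPM in LacZ cells with siControl, 29.9, 31.4 and 32.9 CPM in GCN5 cells with siControl, 16.5, 12.9 and 18.2 CPM in LacZ cells with siHsf1 and 27.1, 26.5 and 25.3 CPM in GCN5 cells with siHsf1. It was higher by 0.83 (SE 0.12, adjusted p = 5.3e-05) and 0.73 (SE 0.13, adjusted p = 4.5e-05). Insig2 stood at 71.1, 74.1 and 62.1 CPM in LacZ cells with siControl, 51.0, 60.6 and 55.3 CPM in GCN5 cells with siControl, 76.2, 64.9 and 72.9 CPM in LacZ cells with siHsf1 and 57.1, 57.4 and 58.0 CPM in GCN5 cells with siHsf1. It was lower by -0.31 (SE 0.09, adjusted p = 0.032) and -0.31 (SE 0.09, adjusted p = 0.0073), without overlap. The siControl call of Insig2 was lost with DESeq2 (adjusted p = 0.062), in a fit of only the libraries compared (0.066), and without siControl LacZ replicate 1 or 2 or siControl GCN5 replicate 1 or 3 (0.082 to 0.18), and held in 2 of 10 thinned draws. Stard4, a soluble sterol carrier, stood at 36.4, 38.2 and 38.3 CPM in LacZ cells with siControl, 64.5, 55.0 and 58.9 CPM in GCN5 cells with siControl, 33.2, 22.1 and 29.3 CPM in LacZ cells with siHsf1 and 57.1, 57.6 and 52.7 CPM in GCN5 cells with siHsf1. It was higher by 0.66 (SE 0.11, adjusted p = 0.00025) and 0.99 (SE 0.11, adjusted p = 1.5e-07).

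With siHsf1, 5 of the 8 fatty acid genes and 6 of the 19 sterol genes fell in the LacZ line, and no gene of the set passed in the GCN5 line. In LacZ cells 13 of the 33 genes fell and 1, Sc5d, rose; over all tested genes 19.5% were called lower and 21.1% higher. The fatty acid branch had 5 of 8 lower (median -0.46), the sterol branch 6 of 19 lower and 1 higher (median -0.19), and the regulators 2 of 6 lower (median -0.06), beside an all-gene median of 0.02. Every siHsf1 library lay below every siControl library for 12 genes of the set (23.5% of all tested genes), 6 of the sterol branch, 5 of the fatty acid branch and 1 regulator, and above for 1, Sc5d (26.4%). With spike-in scaling the all-gene median moved to -0.35, 3 genes were called lower (Slc25a1, Elovl6 and Scd2) and 0 higher, against 6.03% and 0.993% of all genes. With the replicate block added to that scaling, 18 genes were called lower and 0 higher, against 27.6% and 2.4%. These 18 were 10 sterol genes, 6 fatty acid genes and 2 regulators, and held all 13 genes that fell with TMM scaling.

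Elovl6 fell most among the called genes, from 50.9 ± 8.20 to 25.6 ± 5.14 CPM (SD, n = 3), a log2 fold change of -1.0 (SE 0.16, adjusted p = 0.00016). Scd2 fell from 422 ± 24.7 to 257 ± 43.7 CPM, by -0.72 (SE 0.09, adjusted p = 1.4e-05). Fasn fell from 357 ± 56.8 to 257 ± 9.26 CPM, by -0.47 (SE 0.08, adjusted p = 0.00015), and Acly from 468 ± 44.6 to 344 ± 18.3 CPM, by -0.45 (SE 0.06, adjusted p = 5.4e-06). Acaca fell by -0.43. The 5 genes thus span the path from citrate cleavage through synthesis to elongation and desaturation, and in each the libraries of the 2 groups did not overlap. The second siHsf1 LacZ library was the lowest of its group for most genes of the set. These included all 5 called fatty acid genes, Idi1, Sqle, Cyp51, Ggps1, Insig1 and Stard4, but not Mvd, Dhcr7 or Srebf2. For Fasn (251 against 268 and 253 CPM) and Acaca (62.8 against 64.5 and 62.9 CPM) the margin was small. This library also had the highest share of spike-in reads of all 12 libraries (0.362% of gene counts for the 23 spike-in transcripts used for scaling). Without it Elovl6 changed by -0.84 and Scd2 by -0.60. Scd1 (0.07) and Acss2 (-0.13) did not pass.

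In the sterol branch the 6 genes that fell lay at separate steps, and the libraries of 5 of them did not overlap. Idi1, whose libraries did overlap, fell from 9.42 ± 1.80 to 6.45 ± 1.82 CPM, by -0.56 (SE 0.20, adjusted p = 0.03). Dhcr7 fell from 18.8 ± 0.327 to 13.5 ± 0.637 CPM, by -0.48 (SE 0.12, adjusted p = 0.002). Sqle fell from 75.0 ± 3.56 to 55.2 ± 1.63 CPM, by -0.44 (SE 0.07, adjusted p = 3.9e-05), and Cyp51 from 42.6 ± 3.22 to 31.4 ± 1.52 CPM, by -0.44 (SE 0.09, adjusted p = 0.00029). Ggps1 fell by -0.37 (SE 0.10, adjusted p = 0.0062) and Mvd by -0.29 (SE 0.11, adjusted p = 0.031). The isomerase, the epoxidase, the demethylase and the final reductase were thus among the genes that fell, while Acat2, Hmgcs1, Fdps, Fdft1, Lss, Msmo1 and Nsdhl did not pass (-0.19 to 0.05). Of these, Fdps passed with no filter on low counts (-0.22, adjusted p = 0.034), and its libraries did not overlap. Fdft1 passed without siControl LacZ replicate 1 (-0.26, adjusted p = 0.034). Sc5d rose by 0.27 (adjusted p = 0.016) with no overlap, a call made in 6 of 10 thinned draws and not made in the fit of the LacZ libraries alone, or without siControl LacZ replicate 3 or siHsf1 LacZ replicate 3. The Idi1 call was lost without siHsf1 LacZ replicate 2 (-0.33, adjusted p = 0.19) or siControl LacZ replicate 2 (-0.55, 0.060) or 3 (-0.42, 0.14), and in the fit of the LacZ libraries alone (0.060), and held in 2 of 10 thinned draws. Ggps1 was lost without siHsf1 LacZ replicate 2 (-0.25, adjusted p = 0.053), and Mvd with DESeq2 (0.070) and without 4 of the 6 LacZ libraries (0.068 to 0.12), holding in 5 of 10 thinned draws.

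Of the regulators, Srebf2 fell from 280 ± 37.0 to 223 ± 20.2 CPM, by -0.33 (SE 0.08, adjusted p = 0.0029), and Stard4 from 37.7 ± 1.11 to 28.2 ± 5.62 CPM, by -0.42 (SE 0.11, adjusted p = 0.0038). Srebf2 libraries touched: the lowest siControl library had 243 CPM and the highest siHsf1 library 245 CPM. Srebf1 (0.05), Scap (0.08), Insig1 (-0.16) and Insig2 (0.05) did not pass. In the same LacZ libraries Myc fell by -0.60 (SE 0.08) and Kat2a by -0.80 (SE 0.06), and the haematopoietic and fibroblast marker sums given above were higher with siHsf1.

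In the GCN5 line siHsf1 changed none of the 33 genes at the adjusted threshold in edgeR or DESeq2, and 5 at an unadjusted p under 0.05, all of the sterol branch. Of all tested genes 0.0656% were called higher and 0.0985% lower. Branch medians were -0.13 for sterol and 0 for fatty acid genes. Elovl6 stood at 91.0 ± 14.3 CPM with siControl and 94.7 ± 2.27 CPM with siHsf1 (0.06 (SE 0.15, adjusted p = 0.92)), and Fasn at 502 ± 26.4 and 512 ± 11.9 CPM (0.03 (SE 0.08, adjusted p = 0.94)). Scd2 stood at 709 ± 37.0 and 694 ± 19.0 CPM (-0.03 (SE 0.09, adjusted p = 0.93)). Without overlap, siHsf1 libraries lay below siControl libraries for 5 genes (9.73% of all tested genes), Pmvk, Fdft1, Tm7sf2, Scd1 and Insig1, and above for 0 (9.13%). With spike-in scaling 1 gene, Slc25a1, was called higher and 0 lower, against 0.0328% and 0.00821% of all genes, and the same count was called with the replicate block added (0.041% and 0.0246%).

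**Figure D4:**
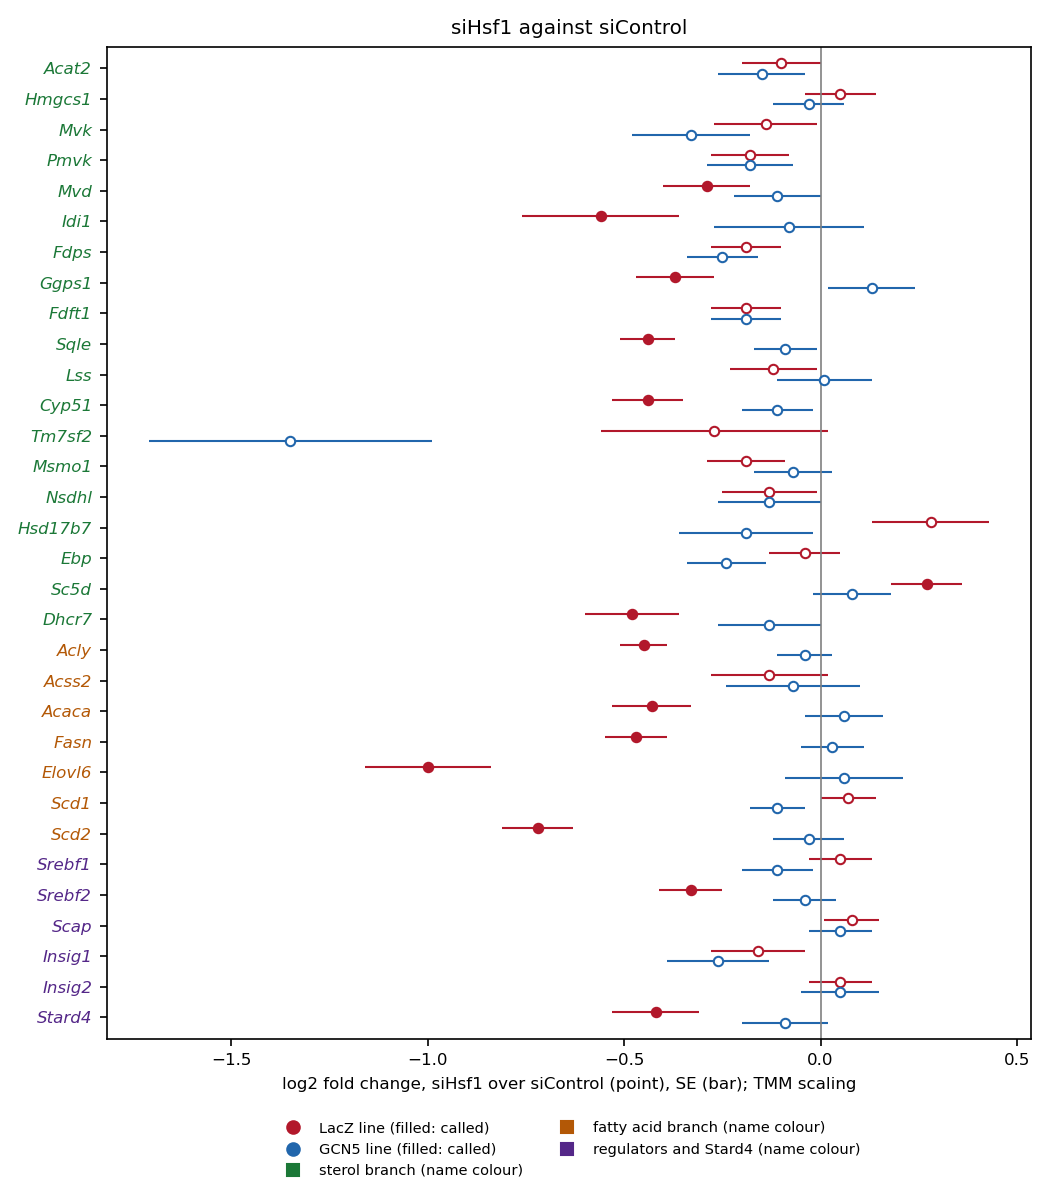
Log2 fold change of siHsf1 over siControl for 32 of the 33 genes, in the LacZ line (red) and the GCN5 line (blue); bars are 1 SE of the fit and filled points passed the adjusted threshold. Slc25a1 is left out, with SEs of 1.16 and 1.26; 13 of the 14 filled points lie left of 0, all 14 belong to the LacZ line, and Elovl6 lies farthest left of them.

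The effect of siHsf1 was then compared between the lines by the interaction term, the log2 change in GCN5 cells minus that in LacZ cells. The interaction passed for 7 genes, all positive: Elovl6 1.06 (SE 0.22, adjusted p = 0.003), Scd2 0.69 (SE 0.13, adjusted p = 0.0012), Fasn 0.50 (SE 0.12, adjusted p = 0.0045), Acaca 0.49 (SE 0.14, adjusted p = 0.015), Acly 0.41 (SE 0.09, adjusted p = 0.0022), Ggps1 0.49 (SE 0.15, adjusted p = 0.022) and Sqle 0.36 (SE 0.11, adjusted p = 0.017). These are 5 of 8 fatty acid genes, 2 of 19 sterol genes and 0 of 6 regulators, beside 11.0% of all tested genes called in each direction. The fatty acid median was 0.49, the sterol median 0 and the all-gene median -0.02. Among the other genes that fell with siHsf1 in LacZ cells, the interaction did not pass for Cyp51 (0.34 (SE 0.12, adjusted p = 0.055)), Srebf2 (0.30 (SE 0.12, adjusted p = 0.076)), Idi1 (0.47 (SE 0.28, adjusted p = 0.24)), Dhcr7 (0.34), Stard4 (0.33) or Mvd (0.18). The branches were not tested against each other, since the set was chosen with results of these data known. All 7 were among the 13 genes that fell with siHsf1 in LacZ cells, a comparison that shares its libraries with the interaction. Hsf1 was itself reduced less in the GCN5 line, as given above, and Myc and Kat2a had interactions of 0.88 (SE 0.11) and 0.81 (SE 0.09); the part of these in the 7 results was not tested. With spike-in scaling the all-gene median of the interaction was 0.32 and 1 gene, Slc25a1, passed (0.172% of all genes higher, 0.222% lower). With spike-in scaling and the replicate block 5 genes passed, all positive and of the fatty acid branch, against 6.11% of all genes higher and 0.903% lower: Elovl6 at 1.46 (SE 0.31), Scd2 at 1.07 (SE 0.30), Fasn at 0.90 (SE 0.30), Acaca at 0.90 (SE 0.30) and Slc25a1 at 5.40 (SE 0.67). In that fit Acly, Ggps1 and Sqle did not pass (adjusted p = 0.08, 0.075 and 0.12). Interactions of Srebf2 and Slc25a1 that were not called with TMM scaling passed with the TMM block (0.30, adjusted p = 0.041, and 5.02, 0.0028). That of Srebf2 also passed with no filter on low counts (0.33, adjusted p = 0.005), and that of Slc25a1 with DESeq2 (5.19, 0.014). Leaving out 1 library also gave edgeR calls for genes not called in the main fit. These were Srebf2 (adjusted p = 0.0029 and 0.025), Slc25a1 (0.023 and 0.049), Cyp51 (0.027 and 0.045) and Stard4 (0.039). The Ggps1 call was lost without siHsf1 LacZ replicate 2, siControl GCN5 replicate 1 or siHsf1 GCN5 replicate 1 or 3 (adjusted p = 0.056 to 0.070), and that of Sqle without siControl GCN5 replicate 1 (0.060). In 10 thinned draws the calls of Ggps1, Acaca and Sqle held in 8, 8 and 7, and the other 4 in all.

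Other genes of sterol and fatty acid handling were read from lists outside the set. The list of SREBP processing and sterol trafficking had 1 of 15 genes higher in the GCN5 line with siControl, the SREBP protease gene Mbtps1 at 0.24 (SE 0.06, adjusted p = 0.0083). All tested genes had 5.46% higher and 4.15% lower there. With siHsf1 5 of the 15 were higher and 4 lower, against 22.2% and 22.6% of all tested genes. The 2 with the smallest p-values were Npc2, a lysosomal sterol carrier, at -0.99 (SE 0.07) and Mbtps2, the second SREBP protease, at 0.82 (SE 0.12). In LacZ cells 4 of the 15 rose with siHsf1 and 3 fell, shares close to those of all tested genes (21.1% and 19.5%). Npc2 rose by 0.86 (SE 0.07), and Mbtps2 and Osbp, an oxysterol-binding protein, fell by -0.76 (SE 0.11) and -0.57 (SE 0.07). The list of 10 genes of sterol efflux and the sterol-sensing LXR receptors had 1 gene higher and 1 lower in the GCN5 line with siControl (median 0.14), and 2 higher and 3 lower with siHsf1 (median -0.16). Cyp7b1, an oxysterol hydroxylase, was higher in both, at 0.77 (SE 0.19, adjusted p = 0.009) and 0.68 (SE 0.19, adjusted p = 0.0046). Abca1, the cholesterol exporter induced by LXR, was lower in the GCN5 line by -0.97 (SE 0.12, adjusted p = 2.3e-06) with siControl and by -1.88 (SE 0.10, adjusted p = 2.0e-13) with siHsf1, and rose with siHsf1 by 1.64 (SE 0.09) in LacZ and 0.73 (SE 0.13) in GCN5 cells. Of the 10, 1 other gene rose with siHsf1 in LacZ cells, Mylip, a ubiquitin ligase of lipoprotein receptors, at 0.92 (SE 0.19). Among 16 genes of fatty acid elongation, desaturation and activation, 3 were higher in the GCN5 line with siControl, Fads2 at 0.42 (SE 0.09), Acsl3 at 0.41 (SE 0.11) and Fads1 at 0.26 (SE 0.06). In LacZ cells 5 of the 16 fell with siHsf1 and 1 rose, against 19.5% and 21.1% of all tested genes, with Acsl3, an acyl-CoA synthetase, at -0.51 (SE 0.10) and the desaturase Fads1 at 0.26 (SE 0.06). With spike-in scaling these 3 lists held 0 or 1 called gene in each comparison, except 2 lower genes of sterol efflux in the GCN5 line with siHsf1.

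The c-MYC peaks were read at the gene starts. The deposited lists are 1 per genotype, named as SEACR stringent calls, with no replicate error and with pooling not stated. The Hsf1 WT list holds 220037 peaks covering 509.9 Mb and the Hsf1 CKO list 6386 peaks covering 11.5 Mb, so their shares are given side by side and not compared. A peak of the WT list lay within 1000 bases of the start of 27 of the 33 genes (81.8%, Wilson 95% interval 65.6% to 91.4%), against 77.3% of all 12153 tested genes with a position. The genes without one were Mvk, Fdft1, Lss, Ebp, Sc5d and Insig2. A peak of the CKO list lay at 16 starts (48.5%, 32.5% to 64.8%), against 35.2% of tested genes. These 16 were 7 of 8 fatty acid genes, all but Acss2, 6 of 19 sterol genes (Acat2, Mvd, Idi1, Ggps1, Cyp51 and Hsd17b7) and 3 of 6 regulators (Srebf2, Scap and Insig1). The intervals take the genes as independent and cover counting error only.

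Peak heights are the authors' maximal coverage, and in both lists they were whole multiples of 1 step (0.000684 in WT, 0.000361 in CKO). Fasn had the tallest start peak of the set in both lists, 29 steps in WT (GRCm38 chromosome 11, 120822244 to 120825781) and 38 steps in CKO (120823035 to 120825397), at percentiles 99.9 and 98.2 of their lists. In WT the next were Cyp51 at 21 steps, Acat2 at 17, and Idi1 and Sqle at 16. The median start peak of the 27 had 11 steps, against 9 for the 9397 tested genes with a start peak and 6 for the whole list. Of the 27, 23 were above the list's median height, as were 82.4% of those tested genes. In CKO the 16 had a median of 12.5 steps, against 12 for the 4274 tested genes with a start peak and 10 for the list, with Idi1 next at 27 steps and Acat2 at 20. Summits lay within 500 bases of the start for 18 of 27 WT and 14 of 16 CKO peaks. The lowest WT peak was that of Dhcr7 at 5 steps, with its summit 2097 bases inside the gene. All 7 printed windows lay within a WT peak, and all but that of Hmgcs1 touched a CKO peak. The Elovl6 window, without any of the 3 motifs, lay in a WT peak of 7650 bases with its summit 1141 bases inside the gene.

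**Figure D5:**
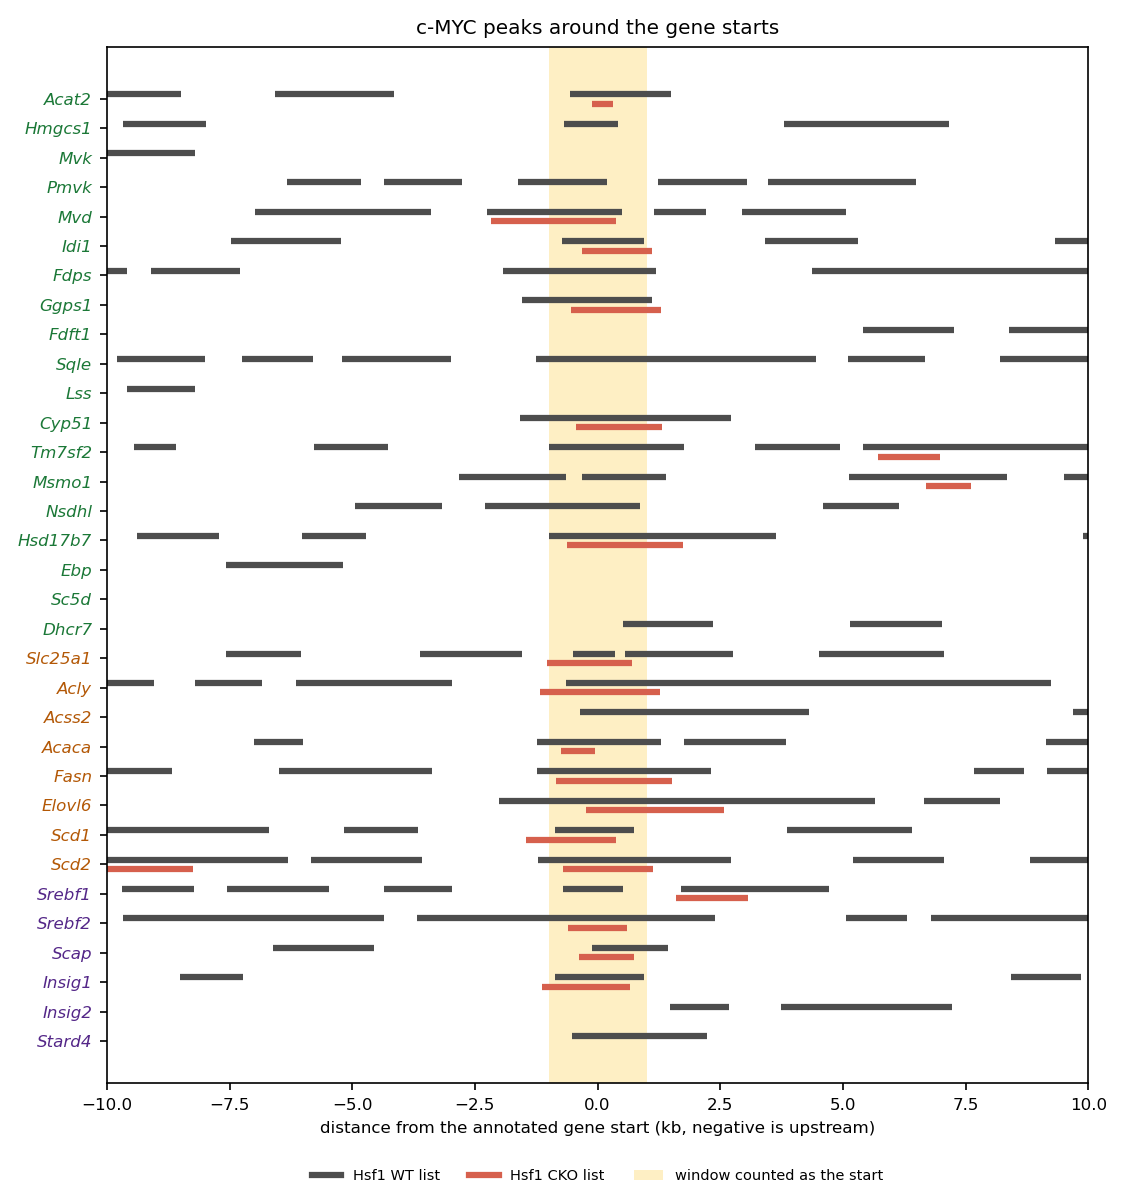
Extent of c-MYC peaks around the start of each gene, from 10 kb before to 10 kb after, with upstream on the left; grey bars are peaks of the Hsf1 WT list, red bars those of the Hsf1 CKO list, and the shaded band is the window of 1000 bases to each side. Grey bars cross the band at 27 genes and red bars at 16, among them 7 of the 8 fatty acid genes.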

How the data were processed

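The set of 33 genes, its branches and the gene lists were chosen with earlier results of these data known. The deposited counts are whole numbers per gene for 12 RNA libraries of mouse fibroblasts, with 92 ERCC spike-in transcripts, and the deposited FPKM table gives the authors' values per gene length. HISAT2, Bowtie2, SEACR and DESeq2, with the builds GRCm38 and mm10, are named in the submitters' processing notes, without versions. No source used here states the library preparation or whether counting used strand. The deposited peak lists give the signal of each peak (summed and maximal coverage), 1 list per genotype, assigned by name. The libraries held 3.69 to 8.16 M gene counts, so 3 counts, taken as the floor, correspond to 0.368 to 0.812 CPM.

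Counts were fitted with edgeR 4.0.16 (R 4.3.3, limma 3.58.1), robust quasi-likelihood, with TMM scaling, 4 group means, 8 residual degrees of freedom and a minimum count of 10 in filterByExpr, which left 12187 genes. P-values were Benjamini-Hochberg adjusted over all of them, with a threshold of 0.05. The first alternative scaled by the 23 transcripts of ERCC subgroup B, listed from general knowledge of the product, since no file names them. Its biological coefficient of variation was 0.274, or 0.184 with a replicate block, against 0.089 with TMM. The ratio of subgroup A to B was 1.36 to 1.54 in all groups, although the labels name different spike mixes for different groups. Other alternatives were DESeq2 1.42.0, no filter, only the libraries compared, a replicate block, each library left out in turn, and counts thinned at random to 3693554, in 10 draws. The thinning, and the spike-in scaling with the block, were added after seeing the data. The fit was tested on simulated data. Peaks and sequences were read with Python 3.11.15 and pandas 2.3.3, with Wilson 95% intervals. Library values are given for the regulators and for every called gene. Full statistics are given for at most 6 sterol and 4 fatty acid genes per comparison of 2 groups. They are also given for the 5 called fatty acid genes of the interaction, and for genes named beside them as values. The siControl and siMyc libraries of a separate experiment were not analysed here.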

Additional observations from a re-analysis of the deposited data

Results flagged for a closer look

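The effect of siHsf1 differed between the lines, by a test of the difference itself, for 7 of the 33 genes of the set. Of all tested genes, 11.0% were called in each direction. The interaction terms, in log2 units, were 1.06 for Elovl6, 0.69 for Scd2, 0.50 for Fasn, 0.49 for Acaca, 0.41 for Acly, 0.49 for Ggps1 and 0.36 for Sqle. In the GCN5 line alone the siHsf1 changes of these genes were 0.06, -0.03, 0.03, 0.06, -0.04, 0.13 and -0.09, in the same order, and none passed in edgeR's test. With spike-in scaling none of the 7 interactions passed in that test (adjusted p = 0.23 to 0.76). With the replicate block added to that scaling, those of Elovl6, Scd2, Fasn and Acaca passed. The Ggps1 and Sqle calls were lost when single libraries were left out, as given above. The fold reduction of Hsf1 itself differed between the lines, by 0.41 (SE 0.11). Its part in the 7 interactions was not tested.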

How the results depend on the processing

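Scaling moved these results most. With spike-in scaling, genes higher and lower numbered 0 and 1 for the line with siControl (sterol median 0.19, fatty acid -0.03), 6 and 0 for the line with siHsf1 (sterol 0.50), 0 and 3 for siHsf1 in LacZ (-0.54 and -0.84), 1 higher for siHsf1 in GCN5, and 1 higher for the interaction (0.33 and 0.84). Spike-in scaling with the replicate block gave, in the same order, 0 and 2 (0.20 and -0.02), 16 and 0, 0 and 18 (-0.56 and -0.84), 1 and 0, and 5 and 0 (0.37 and 0.90). Acly turned to -0.02 and Scd1 to -0.04 for the line with siControl, or -0.01 and -0.03 with the block. The cause was not tested. Genes lower in the line numbered 0 (siControl) and 1 (siHsf1) with DESeq2, 0 with siControl in the fit of only the libraries compared, and 1 with siHsf1 without a filter. In the fit of only the libraries compared the fatty acid median of the line with siHsf1 was 0.79, and 0 genes rose with siHsf1 in LacZ. In the first draw of thinned counts, genes lower in the line numbered 0 (siControl) and 1 (siHsf1), and the sterol median of the interaction was 0.05. Over 10 draws, 9 to 13 genes fell with siHsf1 in LacZ and 5 to 9 interactions were positive. Of all 11544 genes tested in the first draw, 2177 fell with siHsf1 in LacZ and 1266 had a positive interaction call.

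Leaving out 1 library gave 18 to 22 higher and 0 to 1 lower for the line with siControl (medians 0.53 to 0.60 and 0.31 to 0.42), and 21 to 24 and 1 to 2 with siHsf1 (0.51 to 0.60 and 0.86 to 0.92). For siHsf1 in LacZ it gave 0 to 1 higher and 11 to 14 lower (-0.23 to -0.16 and -0.57 to -0.38), in GCN5 0 and 0 (-0.16 to -0.07 and -0.06 to 0.05), and for the interaction 5 to 9 higher (-0.05 to 0.10 and 0.42 to 0.61). All genes tested in these fits, 11907 to 12773, moved too. For the line, 470 to 719 were higher and 315 to 611 lower with siControl, and 2371 to 2902 and 2208 to 2904 with siHsf1. For siHsf1 these were 2133 to 2524 and 2087 to 2495 in LacZ, and 1 to 47 and 3 to 51 in GCN5. Interactions called numbered 1110 to 1429 positive and 1005 to 1378 negative. The replicate block, with TMM, gave 21 and 1, 23 and 2, 1 and 14, 0 and 0, and 9 and 0 calls. Over all 12187 tested genes it gave 708 and 553, 2775 and 2815, 2672 and 2448, 15 and 18, and 1441 and 1413. Same-numbered libraries correlated by -0.06 to 0.10 in their deviations, others by -0.08 to 0.06. In 17 of 36 choices, each among 3 libraries, a library correlated best with its own number. The main fit did not take the numbers as pairs, and these values do not settle whether they are. The share of spike-in reads was lowest in replicate 1 of every group (0.143%, 0.178%, 0.199% and 0.231% of gene counts). With spike-in scaling the block lowered the biological coefficient of variation from 0.274 to 0.184. Over the alternative windows and peak rules, 26 to 28 of the 33 starts had a WT peak and 13 to 17 a CKO peak. The same rules gave 71.9% to 87.8% (WT) and 24.6% to 38.2% (CKO) of all tested genes. With the window of 5000 bases to each side, 28 of 33 had a WT peak, against 87.8% of all tested genes. Depth coincides with line, and Slc25a1 and Tm7sf2 rest on few counts.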

Other observations

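Genes that use the isoprenoid products of the sterol branch were read as a further list of 12. In edgeR's test 0 passed for the line with siControl (0 also with DESeq2 and at an unadjusted p under 0.05), where 5.46% of all tested genes were higher and 4.15% lower, and 6 were higher and 0 lower in the GCN5 line with siHsf1, against 22.2% and 22.6%. The interaction of siHsf1 and line passed for 2 of the 12, against 11.0% of all tested genes in each direction. Among the 6 that were higher with siHsf1 were Pdss1, which makes the side chain of coenzyme Q, at 0.53 (SE 0.13), Coq2, which attaches it, at 0.46 (SE 0.11), Rabggta, a subunit of the enzyme that prenylates Rab proteins, at 0.43 (SE 0.12), and Nus1, a subunit of dolichol synthesis, at 0.32 (SE 0.08). In LacZ cells 5 of the 12 fell with siHsf1, against 19.5% of all tested genes, with Rabggta at -0.62 (SE 0.11), Coq2 at -0.51 (SE 0.10), Pdss1 at -0.47 (SE 0.12) and Nus1 at -0.34 (SE 0.07). With spike-in scaling 0 of 12 were higher in the line with siHsf1 and 1 fell with siHsf1 in LacZ cells. Of 5 tested genes of mitochondrial fatty acid synthesis, a pathway separate from Fasn, Mecr was higher in the GCN5 line with siHsf1, at 0.84 (SE 0.11). In LacZ cells siHsf1 lowered Mecr by -0.69 (SE 0.10) and Ndufab1, the acyl carrier protein, by -0.45 (SE 0.10).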
